A study of Homo sapiens with 14 samples.

Results

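RNA of H929 myeloma cells that carried a second hairpin against ZBP1 (shRNA2) was compared with RNA of cells that carried the scramble control made for that hairpin. The comparison rests on 4 of the 14 libraries in the series, 2 per group, and was described over the 18213 genes, of 58051 in the table, that reached 10 normalised reads in at least 2 of the 8 H929 libraries. The libraries were chosen by their labels alone. The H929 cultures were kept in RPMI with 10% FBS, all were transduced with lentivirus, and all RNA was poly(A)-selected before sequencing. The other H929 groups were a first hairpin against ZBP1 (shRNA1) and the scramble made for it, also with 2 libraries each; MM1.S, a second myeloma line, carried shRNA1, shRNA2 or 1 shared scramble. The labels used here do not say whether the transduced cells were a pool or a clone, how long after transduction RNA was taken, or whether separate cultures gave the 2 libraries of each group. The p-values therefore measure only how far these libraries spread, and that spread may be technical.

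ZBP1 is a cytosolic and nuclear sensor that binds DNA and RNA in the left-handed Z form through its Z-alpha domains. It is induced by interferons, and through RIPK3 and its partners it can start necroptosis, apoptosis and inflammatory signalling in infected cells. H929 is a plasma cell line from a multiple myeloma that makes IgA with a kappa light chain and carries the t(4;14) translocation, which places FGFR3 and NSD2 (WHSC1 in the table) under immunoglobulin enhancers. Myeloma cells of this kind secrete large amounts of antibody, so that genes of protein folding, secretion and plasma cell identity are strongly expressed.

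ZBP1 itself stood at 1229.5 and 1109.6 normalised reads in the shRNA2 libraries, against 3449 and 3729 in their scramble libraries (log2 fold change -1.62 ± 0.09, limma adjusted p = 4.2e-09). The groups did not overlap, and both shRNA2 libraries also lay below both libraries of the scramble for shRNA1, which had 4269 and 4513. The reads in genes numbered 19457202 and 22254348 with shRNA2, against 17242259 and 17282273 with its scramble. Mitochondrial genes took 8.80 and 8.72% of the reads with shRNA2, against 7.12 and 6.84% with the scramble. All 9 plasma cell markers were detected, with a summed level of 125319 and 119677 with shRNA2, against 150390 and 154201 with the scramble. Of the markers of other cell types, KRT19, COL1A2, LUM, CD3D, HBA1 and HBA2 were listed at 0 in all 4 libraries. The T cell list summed to 536 and 410 with shRNA2 against 167 and 162 with the scramble, most of it CD3E (510.5 and 385 against 135 and 126), and its part in the results was not tested. The summed levels were 30.3 and 31.7 against 50.5 and 39.4 for myeloid markers, 10.9 and 5.76 against 16.5 and 6.38 for erythroid, 173 and 192 against 258 and 233 for epithelial, and 5.89 and 5.04 against 7.21 and 9.57 for fibroblast markers.

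The 2 scramble groups of H929 differed from each other. Between them, limma called 3061 genes (16.8%) higher and 2380 (13.1%) lower in the scramble for shRNA2 than in the scramble for shRNA1, 29.9% in all. DNA replication and mitosis genes stood higher in the scramble for shRNA2, with medians of 1.26 and 1.34 on the log2 scale, while clustered histone genes (-1.21) and interferon-stimulated genes (-1.13) were lower. What the 2 scramble groups differ in apart from the hairpin they were made for is not stated, and its part in the shRNA2 results was not tested. Most results below are therefore given against the scramble made for shRNA2 and, beside it, against the scramble made for shRNA1. Both comparisons use the same 2 shRNA2 libraries.

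Against its own scramble, shRNA2 left 3274 of 18213 genes (18%) higher and 4551 (25%) lower at a limma adjusted p under 0.05, or 43% in all. Without shRNA2 replicate 1 the counts were 1861 higher and 3422 lower, and without replicate 2 they were 1924 higher and 3318 lower. Changes of 2-fold or more made up 936 (5.14%) of the rises and 1450 (7.96%) of the falls. The shRNA2 values lay wholly outside the range of the scramble values at 13595 genes (74.6%). A lack of overlap, named for single genes in this text, was thus common and is no support by itself. At how many genes the shRNA2 values lay outside the range of all 4 H929 scramble libraries was not worked out. Where that trait is named for single genes, it is no support by itself either. Against the scramble made for shRNA1, 3197 genes (17.6%) were higher and 3989 (21.9%) lower with shRNA2. The genes higher against both scramble groups numbered 1651 (9.06%), those lower against both 2671 (14.7%), and those called in opposite directions 199 (1.09%). Set against all 4 scramble libraries as 1 group, 1628 genes (8.94%) were higher and 2570 (14.1%) lower. In the authors' deposited table for this comparison, 1908 genes passed an adjusted p of 0.05 with a positive and 3539 with a negative fold change, and 1902 and 3536 of these were called in the same direction by limma.

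**Figure D1:**
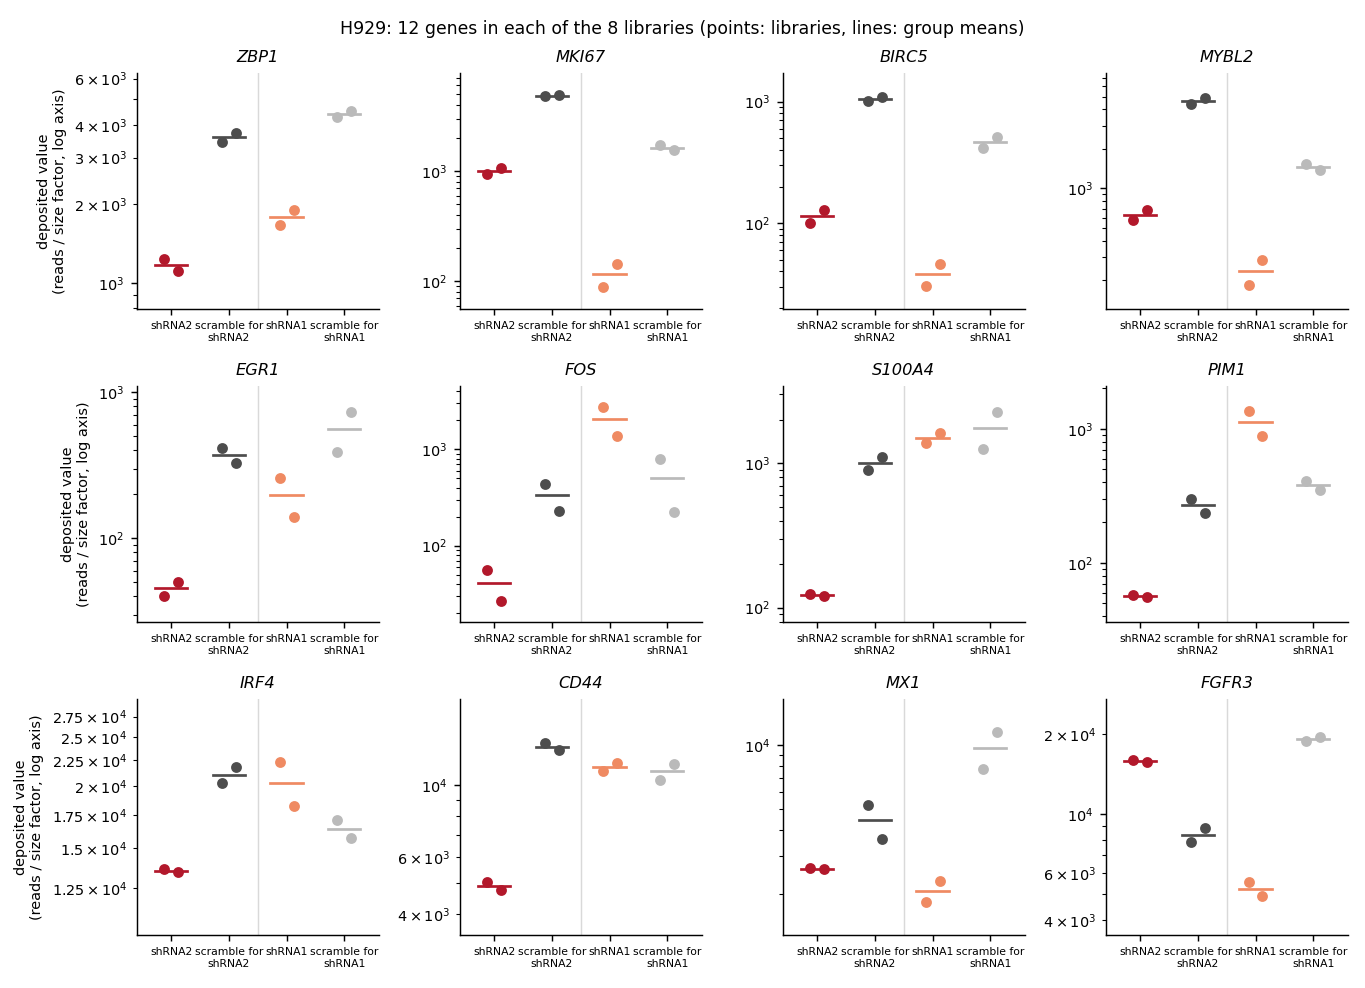
Normalised reads (log scale) of single genes in each H929 library, with points for libraries, for shRNA2, its scramble, shRNA1 and the scramble for shRNA1 from left to right. ZBP1 and the cell cycle genes lie lower with shRNA2 than with its scramble in both libraries, and for several genes the scramble for shRNA1 lies between the groups.

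The deepest fall among well expressed genes was that of BIRC5 (survivin), an inhibitor of apoptosis that also serves in the chromosomal passenger complex of mitosis. BIRC5 had 99.2 and 129 normalised reads with shRNA2, against 1005 and 1102 with its scramble, 9.23-fold lower (log2 fold change -3.21 ± 0.19, limma adjusted p = 4.3e-09). The fall against the scramble for shRNA1, at -2.02 ± 0.19, was smaller. The 12 deepest falls and 12 highest rises were taken only from genes whose groups did not overlap, so that trait is no result of theirs. In the rest of the text, a value with ± in parentheses after a gene is the log2 fold change with its standard error, and where a pair is given the first is against the scramble made for shRNA2 and the second against the scramble made for shRNA1. Where a call was lost without 1 library, that library is named, and scramble replicates 1 and 2 are then those of the scramble made for shRNA2. CLSPN (claspin), which links stalled replication forks to the checkpoint kinase CHK1, had 76.5 and 75.7 against 630.3 and 619 (-3.02 ± 0.18). MYBL2 (B-MYB), a transcription factor of the mitotic gene programme, had 574 and 684 against 4426 and 4932 (-2.90 ± 0.15). For CLSPN and MYBL2 the shRNA2 libraries lay below every scramble library, those made for shRNA1 included. CENPA, the histone variant of centromeres (-2.91 ± 0.25 and -1.66 ± 0.25), and MCM10, which helps start replication (-2.82 ± 0.25 and -0.77 ± 0.25), were the other members of the cell cycle lists among the 12 deepest falls.

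The remaining 7 of these 12 were on none of the cell cycle lists, and 4 of them (S100A4, FOS, EGR1 and ANXA1) had a larger fold change against the other scramble. S100A4, a calcium-binding protein of cell motility, had 124 and 120.3 normalised reads with shRNA2, against 902 and 1099.8 with its scramble and 1259 and 2274 with the scramble for shRNA1. Its log2 fold change was -3.01 ± 0.19 against its own scramble (limma adjusted p = 8.2e-09) and -3.78 ± 0.19 against the other, and all 4 scramble libraries lay well above both shRNA2 libraries. EGR1, a zinc finger factor induced within minutes by growth signals, had 40.4 and 50.4 against 412 and 328 (-3.0 ± 0.27 and -3.54 ± 0.27). ANXA1, a phospholipid-binding protein (63.1 and 62.0 against 597 and 373), changed by -2.90 ± 0.28 and -3.01 ± 0.28. GALNT1, which starts O-glycosylation of secreted proteins, had 234 and 176 against 1582 and 1352 and changed by -2.84 ± 0.13 and -2.50 ± 0.13. FOS (-3.01 ± 0.46 and -3.41 ± 0.46), MYOF, a membrane repair protein (-3.0 ± 0.22 and -2.26 ± 0.22), and FAM111B, a protease (-2.91 ± 0.20 and -1.18 ± 0.20), were the others.

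The highest rises were in genes of low to middling level. CDC42BPG, a kinase that acts downstream of CDC42, had 235 and 258 normalised reads with shRNA2, against 16.5 and 31.9 with its scramble (10.2-fold; log2 fold change 3.36 ± 0.27, limma adjusted p = 1.2e-07). It rose by 2.01 ± 0.27 against the other scramble. CPM, a membrane carboxypeptidase, had 245 and 211 against 48.4 and 29.8 and rose by 2.55 ± 0.27 and 2.02 ± 0.27. For both genes the shRNA2 libraries lay above every scramble library. JUP (plakoglobin), a junction protein, rose by 1.93 ± 0.14, and by 0.62 ± 0.14 against the other scramble. HIST1H3H, HIST2H2BF and HIST1H2AC, by contrast, rose by 2.23 ± 0.16, 1.87 ± 0.22 and 1.80 ± 0.15 against their own scramble, and gave 0.31 ± 0.16, 0.06 ± 0.22 and 0.14 ± 0.15 against the other. IGHA2 rose by 2.42 ± 0.24 against its own scramble and fell against the other (-0.71 ± 0.24). SSPO (2.97 ± 0.19 and 0.70 ± 0.19), TMEM74B (2.36 ± 0.23 and 0.94 ± 0.23), YWHAEP7, a pseudogene (2.35 ± 0.21 and 0.82 ± 0.21), SNAP91 (1.95 ± 0.22 and 0.77 ± 0.22) and ZNF467 (1.89 ± 0.15) were the others of the 12, and ZNF467 gave 0.07 ± 0.15 against the other scramble. Of these 24 genes, some share reads with copies or overlapping genes, since no source used here says that strand was kept: histone genes, IGHA2 and YWHAEP7 have near-identical copies, and CLSPN, CPM, TMEM74B and HIST2H2BF overlap a gene on the other strand, so their values are uncertain.

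**Figure D2:**
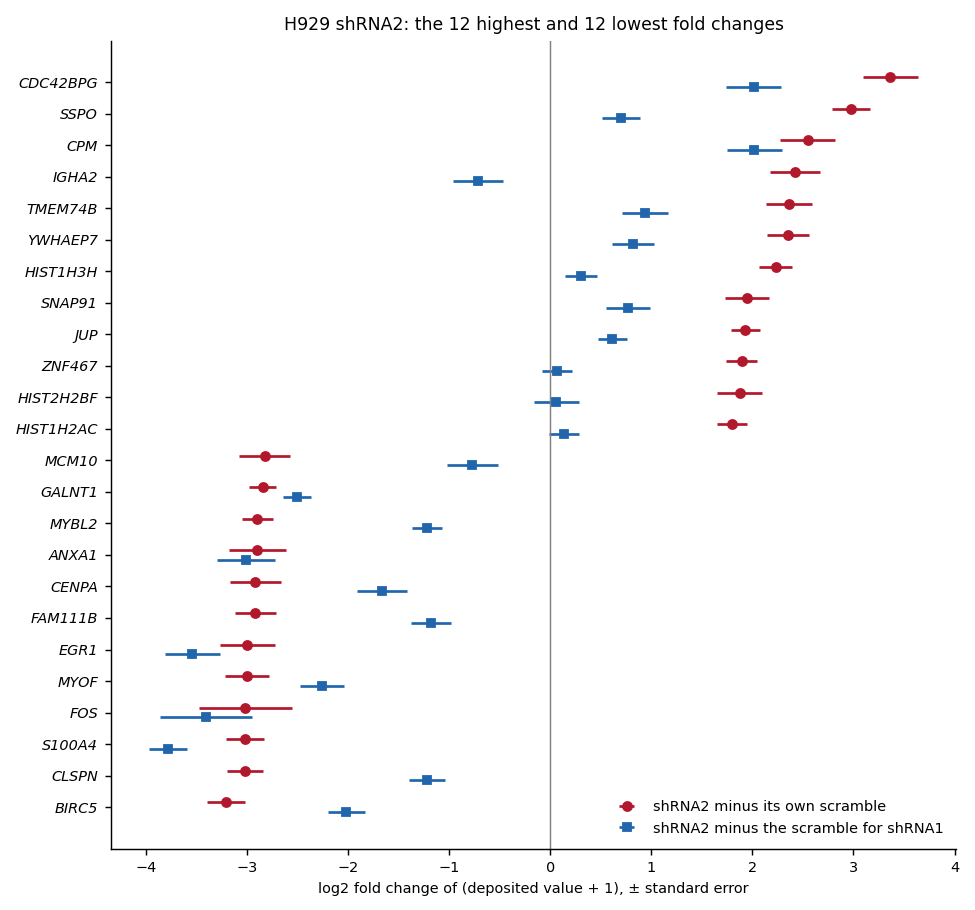
Log2 fold change (points, with standard error bars) of the 12 lowest and the 12 highest genes, for shRNA2 against its own scramble and against the scramble for shRNA1. Most falls are present against both scramble groups, whereas the histone genes, IGHA2 and ZNF467 are near 0 or negative against the scramble for shRNA1.

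By absolute level the greatest losses were in highly expressed genes. MAPKAPK2 (MK2), a kinase downstream of p38, had 10682 and 10762 normalised reads with shRNA2, against 29989 and 34700.1 with its scramble, and fell (-1.59 ± 0.10 and -1.35 ± 0.10) in log2 against the 2 scramble groups. Its groups did not overlap, as was true at 74.6% of all genes. PKM, the last enzyme of glycolysis (-0.98 ± 0.12 and -0.49 ± 0.12), RPL3 (-0.80 ± 0.09 and -0.41 ± 0.09), MTDH (-1.19 ± 0.08 and -0.66 ± 0.08), IGKC (-0.45 ± 0.12 and -0.51 ± 0.12) and FTL (-0.33 ± 0.10 and -0.51 ± 0.10) were the other genes of greatest loss. The greatest gains were those of MT-CO2 (0.34 ± 0.13 and 0.51 ± 0.13), MT-RNR2 (0.28 ± 0.10 and 0.57 ± 0.10), CTSB, a lysosomal protease (0.35 ± 0.10 and 0.39 ± 0.10), NEAT1, the RNA scaffold of paraspeckles (0.63 ± 0.12), MT-ND6 (0.36 ± 0.09 and 0.27 ± 0.09) and DUSP5 (0.70 ± 0.15). NEAT1 and DUSP5 gave -0.13 ± 0.12 and 0.14 ± 0.15 against the scramble for shRNA1, where neither passed. The call of IGKC was lost without scramble replicate 2 (-0.29, limma adjusted p = 0.0643) or shRNA2 replicate 2 (-0.41, limma adjusted p = 0.0776). FTL lost its call without scramble replicate 2 (-0.31, limma adjusted p = 0.0588), shRNA2 replicate 1 (-0.38, limma adjusted p = 0.0724) or shRNA2 replicate 2 (-0.28, limma adjusted p = 0.187). The call of MT-CO2 was lost without scramble replicate 1 (0.30, limma adjusted p = 0.168), scramble replicate 2 (0.38, limma adjusted p = 0.0907), shRNA2 replicate 1 (0.32, limma adjusted p = 0.204) or shRNA2 replicate 2 (0.35, limma adjusted p = 0.161). MT-RNR2 lost its call without scramble replicate 1 (0.25, limma adjusted p = 0.0978), shRNA2 replicate 1 (0.28, limma adjusted p = 0.173) or shRNA2 replicate 2 (0.28, limma adjusted p = 0.16). The call of CTSB was lost without scramble replicate 2 (0.32, limma adjusted p = 0.0667) or shRNA2 replicate 1 (0.21, limma adjusted p = 0.266). MT-ND6 lost its call without shRNA2 replicate 1 (0.34, limma adjusted p = 0.0715).

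Of the cell cycle lists, nearly every tested gene of mitosis and of DNA replication fell against the scramble made for shRNA2, and fewer fell against the scramble made for shRNA1. Dividing cells switch on replication genes through E2F factors at the G1/S border, and mitotic genes later through MYBL2, FOXM1 and the DREAM/MuvB complex. All 67 tested genes of G2/M and mitosis fell, 63 of them 2-fold or more, with a median log2 fold change of -2.06, beside -0.02 over all genes tested. Against the scramble for shRNA1, 44 fell, with a median of -0.63. Of 51 genes of DNA replication and G1/S, 50 fell (median -1.43), and 21 fell while 1 rose against the other scramble (median -0.29). Of 30 genes of homologous recombination and the Fanconi pathway, which repair broken and crosslinked DNA, 27 fell (median -1.41), and 13 fell and 2 rose against the other scramble (median -0.30). In a bulk sample, fewer cells of a kind (here, cells in cycle) and less RNA per cell cannot be told apart.

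MKI67, the proliferation marker Ki-67, had 939 and 1066 normalised reads with shRNA2, against 4761 and 4871 with its scramble and 1711 and 1539 with the other. It fell against both scramble groups, with log2 fold changes of -2.27 ± 0.15 (limma adjusted p = 1.7e-08) and -0.70 ± 0.15, and both shRNA2 libraries lay below all 4 scramble libraries. CDK1, the kinase that drives mitosis, had 90.8 and 80.0 against 568 and 547 (-2.70 ± 0.22 and -1.31 ± 0.22 against the other scramble). RRM2, the small subunit of ribonucleotide reductase, had 806 and 991 against 5422 and 5679 (-2.63 ± 0.16 and -1.11 ± 0.16), and TOP2A, which untangles DNA, had 869.6 and 879.8 against 5316 and 5109 (-2.57 ± 0.21 and -1.29 ± 0.21). The replicative helicase subunit MCM2 had 1123 and 1211 against 3496 and 4388 (-1.75 ± 0.11), but against the scramble for shRNA1 it gave -0.25 ± 0.11 (limma adjusted p = 0.102). UHRF1, which keeps DNA methylation through replication, likewise fell (-2.79 ± 0.26) and gave -0.56 ± 0.26 against the other scramble (limma adjusted p = 0.0976). PCNA, the sliding clamp of replication, changed sign, at -0.60 ± 0.12 against its own scramble and 0.32 ± 0.12 against the other (limma adjusted p = 6.9e-04 and 0.0426). Among repair genes, EXO1 (-2.65 ± 0.30 and -0.86 ± 0.30) and BLM (-2.43 ± 0.20 and -1.03 ± 0.20) fell against both scramble groups.

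Among G1 cyclins, their kinases and RB family genes, 14 of 28 fell and 5 rose (median -0.33), and 10 fell and 1 rose against the other scramble. CCND1 (cyclin D1) had 721 and 680.2 normalised reads against 1491 and 1539 (-1.11 ± 0.11), CDK2 110.2 and 130.4 against 478 and 449.9 (-1.94 ± 0.15) and E2F1 531 and 593 against 1889 and 2231 (-1.87 ± 0.13), and these 3 also fell against the other scramble. CDKN1B (p27), an inhibitor of CDK2, rose by 0.55 ± 0.12 and CDKN2D by 0.74 ± 0.18, and against the other scramble they gave 0.14 ± 0.12 and 0.26 ± 0.18 and did not pass. The clustered histone genes, whose transcripts in dividing cells mostly end without a poly(A) tail, ran the other way. Of 48 that reached the filter, from 90 matched in the table, 34 rose (median 1.18), but against the scramble for shRNA1 2 rose and 7 fell (median -0.11). The count of rising G1 genes of 5 was 2 without shRNA2 replicate 1. The call of CDKN2D was lost without shRNA2 replicate 1 (0.62, limma adjusted p = 0.0531).

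Promoter sequences of 2 of these genes are shown because their motifs are those of the E2F and the MuvB type of control. The windows run from 250 bases before to 20 bases after the annotated start, come from RefSeq on GRCh38.p14 and read 5′ to 3′ on the gene's strand. Capitals mark an E2F-like match (TTTNNCGC, either strand) in CLSPN (chr1:35769959-35770228, minus strand), starting 5 bases before the gene start. In CENPA (chr2:26785806-26786075, plus strand) they mark the cell cycle homology region (CHR, TTTGAA, either strand), 18 bases before the start, and 2 CCAAT boxes (either strand) 205 and 130 bases before it.
CLSPN: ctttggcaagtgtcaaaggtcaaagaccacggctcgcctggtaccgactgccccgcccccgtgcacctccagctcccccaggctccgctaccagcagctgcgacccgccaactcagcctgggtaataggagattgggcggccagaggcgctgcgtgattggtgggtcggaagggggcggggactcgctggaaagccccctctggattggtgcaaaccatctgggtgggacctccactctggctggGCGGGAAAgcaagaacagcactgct
CENPA: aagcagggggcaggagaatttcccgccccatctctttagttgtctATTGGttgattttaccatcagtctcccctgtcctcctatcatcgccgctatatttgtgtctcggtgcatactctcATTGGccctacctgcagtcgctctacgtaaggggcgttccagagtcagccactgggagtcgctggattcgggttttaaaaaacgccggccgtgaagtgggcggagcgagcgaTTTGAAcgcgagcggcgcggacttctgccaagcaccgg
In windows that run on to 50 bases after the start, the E2F-like motif was found in 23 of 43 replication genes (53.5%). It was in 6.90% of the 27305 RefSeq promoters and in 10.2% of the 11048 tested genes with a window. The CHR was in 38 of 58 G2/M genes (65.5%, against 15.4% of RefSeq promoters and 9.59% of tested genes). The CCAAT box was in 42 of 58 (72.4%, against 35.7% and 36.4%). Further motifs were searched for in other lists, and not all are given here. The lists were drawn from known targets, and a match describes the letters only.

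Interferon-stimulated genes moved both ways against the scramble made for shRNA2, whereas 34 of 42 fell against the other. These genes answer to type I interferon through STAT factors, and ZBP1 is one of their kind. Of 42 tested, 18 fell and 11 rose (median -0.30); against the scramble for shRNA1, 34 fell (median -1.38), and 18 fell against both. IFITM1, a membrane protein that hinders virus entry, had 26.9 and 59.8 normalised reads with shRNA2, against 305 and 176 with its scramble and 996 and 1365 with the other. It fell (-2.50 ± 0.28 and -4.82 ± 0.28) in log2, and no scramble library reached down to the shRNA2 libraries. ISG15, a ubiquitin-like modifier, had 999 and 960.4 against 2136 and 1704 (-0.96 ± 0.14), and MX1, an antiviral GTPase, 2635 and 2604 against 5253 and 3625 (-0.74 ± 0.17). The 2 scramble libraries of MX1 differed between themselves, with replicate 1 the higher, but both lay above the shRNA2 libraries. Against the other scramble both genes fell (-2.19 ± 0.14 and -1.85 ± 0.17). The RNA helicase DDX60 rose against its own scramble (205 and 204 against 78.3 and 48.9; 1.71 ± 0.28), as did IFIT5 (1.38 ± 0.24), UBA7, the E1 enzyme of ISG15 (1.22 ± 0.18), and TRIM22 (1.12 ± 0.23). Against the other scramble DDX60, IFIT5 and UBA7 gave 0.66 ± 0.28, 0.04 ± 0.24 and -0.09 ± 0.18, none past the threshold, and TRIM22 fell (-0.75 ± 0.23). The falling count of 18 was 10 without scramble replicate 1. The rising count of 11 was 6 without scramble replicate 2, 6 without shRNA2 replicate 1 and 6 without shRNA2 replicate 2. The call of MX1 was lost without scramble replicate 1 (-0.47, limma adjusted p = 0.0795).

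The IFITM1 promoter is shown for its 2 ISRE-like matches (GAAA, any 2 bases, GAAA, on either strand, in capitals), which start 40 and 6 bases before the gene start (chr11:313790-314059, plus strand).
IFITM1: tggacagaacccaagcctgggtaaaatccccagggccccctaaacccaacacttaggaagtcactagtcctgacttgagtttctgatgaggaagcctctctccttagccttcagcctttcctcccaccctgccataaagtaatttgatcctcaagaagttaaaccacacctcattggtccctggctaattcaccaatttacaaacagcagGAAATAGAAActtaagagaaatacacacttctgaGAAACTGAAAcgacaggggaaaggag
The motif was found in 22 of 33 interferon-stimulated genes with a promoter window (66.7%), against 3.65% of all RefSeq promoters and 2.97% of tested genes.

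Of 28 genes that sense nucleic acids or activate IRF3, 11 fell and 2 rose (median -0.22), and 14 fell and 3 rose against the other scramble. MB21D1 (cGAS), which senses DNA, had 442 and 469 normalised reads against 928 and 898 (-1.0 ± 0.10 and -0.51 ± 0.10 against the other scramble). TMEM173 (STING), its downstream adaptor, had 246 and 208 against 467 and 441 (-1.0 ± 0.11 and -1.51 ± 0.11), and IFI16, a nuclear DNA sensor, had 3224 and 3425 against 9261 and 7513 (-1.33 ± 0.13 and -1.58 ± 0.13). For all 3 both shRNA2 libraries lay below the 4 scramble libraries. EIF2AK2 (PKR), which senses double-stranded RNA, fell (-1.03 ± 0.12 and -1.72 ± 0.12). ADAR, whose long form also binds Z-RNA and restrains ZBP1, gave -0.13 ± 0.09 (limma adjusted p = 0.228) and fell (-0.39 ± 0.09) against the other scramble. TBK1 gave 0.05 ± 0.11 and IRF3 0.03 ± 0.09, and neither passed against either scramble. IFIH1 (MDA5) rose by 0.40 ± 0.10 and fell (-0.27 ± 0.10) against the other scramble, and the TBK1 adaptor TBKBP1 rose by 0.81 ± 0.11 and fell (-0.39 ± 0.11). The call of IFIH1 was lost without scramble replicate 2 (0.31, limma adjusted p = 0.0665) or shRNA2 replicate 2 (0.36, limma adjusted p = 0.0662).

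The partners through which ZBP1 signals cell death did not pass the test or were listed at 0. RIPK3 was listed at 0 in all 4 libraries, but so was EEF1G, an elongation factor that every cell uses. RIPK1 gave -0.03 ± 0.13, MLKL, the executor of necroptosis, -0.08 ± 0.11, and CASP8 0.04 ± 0.11, with limma adjusted p of 0.857, 0.559 and 0.802. Against the other scramble they gave -0.01 ± 0.13, -0.22 ± 0.11 and -0.12 ± 0.11, with limma adjusted p of 0.961, 0.126 and 0.385. Of 23 genes of necroptosis and death receptors, 6 fell (26.1%) and 2 rose (8.7%), beside 25 and 18% over all genes. Against the other scramble 8 fell and 1 rose. CASP10 (-0.31 ± 0.09) and TRAF2 (-0.47 ± 0.12) fell against both, and SPATA2, an adaptor of receptor complexes, rose against both (0.50 ± 0.11 and 0.63 ± 0.11). In the BCL2 family, 5 of 16 rose and 5 fell, and 3 rose and 6 fell against the other scramble. BMF, a pro-apoptotic BH3-only protein, had 4855 and 4783 normalised reads against 2313 and 2233 and rose by 1.08 ± 0.08 and 0.45 ± 0.08. BID, which had 383 and 414 against 740.5 and 796 (-0.95 ± 0.10 and -0.52 ± 0.10), BAK1, a pore former (-0.67 ± 0.10 and -0.63 ± 0.10), and BCL2, which protects cells (-0.55 ± 0.12 and -1.0 ± 0.12), fell against both scramble groups. BCL2L11 (BIM) rose by 0.92 ± 0.12 but gave 0.13 ± 0.12 against the other scramble, and BBC3 (PUMA) rose by 0.87 ± 0.10 and fell (-0.48 ± 0.10). MCL1, on which many myeloma cells depend, gave -0.01 ± 0.10, and fell (-0.63 ± 0.10) against the other scramble. The falling count of the death receptor list of 6 was 3 without scramble replicate 1, and the rising count of the BCL2 family of 5 was 3 without scramble replicate 1 and 3 without shRNA2 replicate 1. The call of CASP10 was lost without scramble replicate 1 (-0.26, limma adjusted p = 0.0695), shRNA2 replicate 1 (-0.32, limma adjusted p = 0.0561) or shRNA2 replicate 2 (-0.29, limma adjusted p = 0.0804). TRAF2 lost its call without scramble replicate 2 (-0.37, limma adjusted p = 0.0666).

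Targets of p53 gave no single direction, with 9 of 29 higher and 4 lower (median 0.09), and 6 higher and 10 lower against the other scramble. CDKN1A (p21) had 7795 and 6985 normalised reads with shRNA2, against 7105 and 6772 with its scramble and 15162 and 15619.5 with the other. It gave 0.09 ± 0.09 against its own scramble (limma adjusted p = 0.464) and fell (-1.06 ± 0.09) against the other. PLK3 (-1.27 ± 0.11 and -1.21 ± 0.11) and GADD45A (-0.80 ± 0.10 and -1.04 ± 0.10) fell, while TP53I3 rose by 0.87 ± 0.16 and 0.91 ± 0.16.

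IRF4 and PRDM1 (BLIMP1) set the plasma cell programme, and XBP1 builds its secretory machinery. Of 29 genes of plasma cell identity, 15 fell and 1 rose (median -0.35), 18 fell and 1 rose against the other scramble (median -0.41), and 12 fell against both. IRF4 had 13626 and 13463 normalised reads with shRNA2, against 20237 and 21844 with its scramble and 17109 and 15719 with the other (-0.63 ± 0.10 and -0.28 ± 0.10 against the other). PRDM1 had 4684 and 4137 against 6420.0 and 6616 (-0.57 ± 0.09 and -0.58 ± 0.09). XBP1 had 22319.5 and 20519 against 32793 and 34082 (-0.64 ± 0.09 and -0.41 ± 0.09). In each of the 3 genes both shRNA2 libraries were below all 4 scramble libraries. CD38, a surface enzyme used as an antibody target, fell (-0.62 ± 0.11 and -1.03 ± 0.11), and GPRC5D, an orphan receptor of plasma cells, had 283 and 290.4 against 721 and 716 (-1.32 ± 0.12 and -1.26 ± 0.12). FCRLA, FKBP11, a folding enzyme, and MZB1, an ER chaperone partner, fell (-1.70 ± 0.18, -1.15 ± 0.08 and -0.70 ± 0.09), and against the other scramble they fell too (-1.77 ± 0.18, -0.96 ± 0.08 and -0.81 ± 0.09). SDC1 (CD138) had 15597 and 14710.1 against 13699 and 15991 and TNFRSF17 (BCMA) 9278 and 8789.6 against 9564 and 9726, with log2 fold changes of 0.03 ± 0.10 and -0.09 ± 0.08 that did not pass against either scramble.

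Genes tied to the t(4;14) translocation moved apart. WHSC1 (NSD2), the histone methyltransferase on the translocated chromosome, had 20631 and 20455 normalised reads against 16238 and 17172 and rose by 0.30 ± 0.08 and 0.22 ± 0.08 against the 2 scramble groups. FGFR3, the receptor on the other derivative, had 16027 and 15675 with shRNA2, against 7835 and 8878 with its scramble and 18838 and 19463 with the other. It rose by 0.93 ± 0.09 and fell (-0.27 ± 0.09). SULF2, an extracellular sulfatase, had 2289 and 2095 against 10129.5 and 10869.6 and fell (-2.26 ± 0.09 and -2.70 ± 0.09), with no overlap between shRNA2 and any scramble library. DSG2, a desmosomal cadherin (-1.17 ± 0.10 and -1.0 ± 0.10), and ADAM9 (-0.87 ± 0.11 and -0.64 ± 0.11) fell too. SLC7A2, a transporter of basic amino acids, fell (-2.76 ± 0.17 and -1.42 ± 0.17). Of the 10 genes in the list, 6 fell and 3 rose, and 6 fell and 1 rose against the other scramble. The call of WHSC1 was lost without scramble replicate 1 (0.26, limma adjusted p = 0.0511), shRNA2 replicate 1 (0.29, limma adjusted p = 0.0868) or shRNA2 replicate 2 (0.31, limma adjusted p = 0.0743).

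IGKC, the kappa constant region, had 78108 and 74033 normalised reads with shRNA2, against 92889 and 115636 with its scramble (-0.45 ± 0.12 and -0.51 ± 0.12 against the other), and the variable segment IGKV3-15 fell with it (-0.46 ± 0.10 and -0.51 ± 0.10). IGHA1 had 1142 and 1057 against 469.6 and 498 and 1507 and 2439.6 with the other scramble, so it rose by 1.18 ± 0.16 and fell (-0.80 ± 0.16). Of the 30 immunoglobulin genes that reached the filter, 5 fell (16.7%) and 3 rose (10%), beside 25 and 18% over all genes. Against the other scramble 10 fell and 2 rose. These genes resemble one another closely, so reads may be split between them. Of 19 genes of MHC class I and peptide loading, 11 fell and 2 rose, and 13 fell and 1 rose against the other scramble. TAP1, which pumps peptides into the ER, had 1805 and 1915 against 2987 and 2896 (-0.66 ± 0.08 and -1.20 ± 0.08), and ERAP2, which trims them, fell (-0.84 ± 0.12 and -0.90 ± 0.12). Of 13 class II genes 5 rose (median 0.47), and 2 rose and 2 fell against the other scramble (median -0.22). HLA-DRA, a class II chain, rose by 1.23 ± 0.22 and 0.85 ± 0.22. In the B cell and germinal centre list, 6 of 19 fell (31.6%) and 4 rose (21.1%), beside 25 and 18% over all genes. That rising count was lower without scramble replicate 2 or shRNA2 replicate 1. Against the other scramble 8 fell and 2 rose. BTK, a kinase of B cell receptor signalling, fell (-1.24 ± 0.15 and -1.10 ± 0.15), and BACH2, which opposes plasma cell fate, rose by 0.62 ± 0.14 and gave 0.27 ± 0.14 against the other scramble. The count of rising class II genes of 5 was 2 without scramble replicate 1 and 3 without shRNA2 replicate 2. The count of falling B cell genes of 6 was 3 without scramble replicate 2. The call of IGKC was lost without scramble replicate 2 (-0.29, limma adjusted p = 0.0643) or shRNA2 replicate 2 (-0.41, limma adjusted p = 0.0776).

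Adhesion molecules and chemokine receptors hold myeloma cells in the marrow. Of 26 genes of adhesion and chemokine receptors, 15 fell (median -0.60), 16 fell against the other scramble (median -0.57), and 13 fell against both. CD44, a hyaluronan receptor, had 5034 and 4737 normalised reads with shRNA2, against 13426 and 12819 with its scramble (-1.43 ± 0.09 and -1.17 ± 0.09 against the other). NCAM1 (CD56) had 1158 and 1098 against 2830.0 and 2614 (-1.27 ± 0.09 and -1.30 ± 0.09). ITGA4, an integrin chain that binds fibronectin, had 5157 and 5018 against 8707 and 8187 (-0.73 ± 0.08 and -0.31 ± 0.08), and CCR1, a chemokine receptor, 1158 and 977 against 2039 and 1799.7 (-0.85 ± 0.16 and -0.81 ± 0.16). None of these groups overlapped, as was true at 74.6% of all genes for shRNA2 and its own scramble. CXCR4, the receptor for CXCL12, gave -0.38 ± 0.22 and 0.33 ± 0.22 (limma adjusted p = 0.188 and 0.269).

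Immediate early genes are those that growth factor and stress kinases switch on without new protein synthesis. Of 27 tested, 20 fell and 1 rose, 12 of them falling 2-fold or more (median -0.70). Against the other scramble 22 fell (median -0.92), and 19 fell against both. FOS had 55.5 and 26.7 normalised reads with shRNA2, against 441 and 229.8 with its scramble and 782 and 223 with the other; the scramble replicates differed between themselves, but neither reached the shRNA2 values (-3.01 ± 0.46 and -3.41 ± 0.46). JUN had 466 and 339 against 1229.6 and 890.3 (-1.40 ± 0.22 and -1.61 ± 0.22). FOSL1 had 64.8 and 56.9 against 176 and 166 (-1.48 ± 0.16 and -1.32 ± 0.16). SPRY4, a feedback inhibitor of the RAS-ERK pathway, had 43.7 and 32.4 against 181 and 188 (-2.26 ± 0.19 and -2.15 ± 0.19), and the ERK phosphatase DUSP6 746 and 689 against 1476 and 1327 (-0.96 ± 0.11 and -0.77 ± 0.11). NR4A1, an orphan nuclear receptor, fell (-1.34 ± 0.18 and -1.84 ± 0.18). DUSP5, another ERK phosphatase, was the gene that rose (0.70 ± 0.15).

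EGR1 carries 2 matches to the CArG box, the site of serum response factor, in its promoter (chr5:138465229-138465498, plus strand); capitals mark them, starting 105 and 83 bases before the gene start.
EGR1: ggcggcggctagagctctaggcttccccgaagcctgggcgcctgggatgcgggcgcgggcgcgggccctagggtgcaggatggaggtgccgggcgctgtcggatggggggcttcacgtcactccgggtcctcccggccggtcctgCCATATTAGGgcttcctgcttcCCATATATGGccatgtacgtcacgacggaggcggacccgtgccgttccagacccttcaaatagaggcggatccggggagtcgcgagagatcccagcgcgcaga
It was the 1 immediate early gene of the 20 with a promoter window that held the motif (5%, against 1.29% of all promoters). The AP-1 site (TGANTCA), the site of FOS and JUN proteins, was also in 1 of the 20 (5%). That compares with 7.76% of all promoters and 4.74% of tested genes.

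MYC, the oncogene that drives growth of myeloma cells, had 5398 and 5659.7 normalised reads with shRNA2, against 11570.2 and 13772 with its scramble and 11118 and 9247 with the other. It fell against both (-1.19 ± 0.11 and -0.88 ± 0.11, limma adjusted p = 5.9e-07 for the first). The groups did not overlap, as was true at 74.6% of all genes for shRNA2 and its own scramble. PIM1, a kinase induced by STAT3 and NF-kB, had 57.2 and 55.5 against 302 and 236 and fell (-2.22 ± 0.18 and -2.72 ± 0.18). In the IL-6, JAK-STAT3 and PIM list, 8 of 20 fell, and 13 against the other scramble. PTPN6 (SHP-1) fell (-0.93 ± 0.15 and -1.20 ± 0.15), whereas IL6R fell (-0.75 ± 0.19) and gave -0.06 ± 0.19. In the NF-kB list 8 of 25 fell (32%) and 4 rose (16%), beside 25 and 18% over all genes. That rising count was lower without scramble replicate 1 or shRNA2 replicate 2. Against the other scramble 12 fell and 2 rose. The chemokine CCL3 had 1943 and 1544 against 4919.5 and 3822 (-1.32 ± 0.14 and -1.17 ± 0.14) and CCL4 had 247 and 177 against 1050.4 and 747 (-2.08 ± 0.26 and -1.94 ± 0.26). TNFAIP3 (A20), a brake on NF-kB, fell (-0.87 ± 0.14 and -1.29 ± 0.14), while REL rose by 0.37 ± 0.13 and 0.91 ± 0.13. NFKB2 rose by 0.38 ± 0.10 and fell (-0.34 ± 0.10). The falling count of the IL-6 list of 8 was 5 without scramble replicate 2, 5 without shRNA2 replicate 1 and 4 without shRNA2 replicate 2, and that of the NF-kB list of 8 was 5 without scramble replicate 2. The call of IL6R was lost without scramble replicate 2 (-0.74, limma adjusted p = 0.0526) or shRNA2 replicate 2 (-0.63, limma adjusted p = 0.0558). REL lost its call without scramble replicate 1 (0.39, limma adjusted p = 0.111), scramble replicate 2 (0.35, limma adjusted p = 0.153), shRNA2 replicate 1 (0.46, limma adjusted p = 0.0587) or shRNA2 replicate 2 (0.28, limma adjusted p = 0.249). The call of NFKB2 was lost without scramble replicate 1 (0.25, limma adjusted p = 0.0746).

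The unfolded protein response adjusts the chaperones of the ER through XBP1, ATF6 and PERK. Of 31 genes, 19 fell and 1 rose (median -0.38), 15 fell and 2 rose against the other scramble (median -0.25), and 13 fell against both. HSPA5 (BiP), the main ER chaperone, had 17643 and 16794 normalised reads with shRNA2, against 26816 and 25928 with its scramble (-0.62 ± 0.09 and -0.67 ± 0.09 against the other). CALR (calreticulin) had 10648 and 9916 against 21891 and 22815 (-1.12 ± 0.09 and -0.69 ± 0.09), PDIA4 3295 and 3174 against 6859 and 6923 (-1.09 ± 0.09 and -0.63 ± 0.09) and SEC24D, a coat protein of ER export, 844 and 844 against 2151 and 2069.9 (-1.32 ± 0.08 and -1.30 ± 0.08). In each of these genes both shRNA2 libraries lay below all 4 scramble libraries. SYVN1, a ubiquitin ligase of ER degradation, rose by 0.36 ± 0.09, and gave 0.11 ± 0.09 against the other scramble. The call of SYVN1 was lost without scramble replicate 1 (0.27, limma adjusted p = 0.0547).

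The CALR promoter holds an ER stress element (ERSE: CCAAT, any 9 bases, CCACG, on either strand, in capitals), which starts 225 bases before the gene start (chr19:12938359-12938628, plus strand).
CALR: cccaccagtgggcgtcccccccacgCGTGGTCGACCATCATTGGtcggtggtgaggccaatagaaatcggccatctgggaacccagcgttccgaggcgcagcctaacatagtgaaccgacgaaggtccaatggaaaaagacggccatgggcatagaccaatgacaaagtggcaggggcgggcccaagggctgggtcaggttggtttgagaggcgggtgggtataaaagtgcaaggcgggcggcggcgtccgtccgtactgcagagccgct
It was found in 6 of 28 genes of the list (21.4%), against 0.0806% of all RefSeq promoters and 0.136% of tested genes.

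Of 38 targets of ATF4, the factor of the amino acid response, 29 fell and 1 rose (median -0.62), and 14 fell and 5 rose against the other scramble (median -0.20). ATF4 itself gave -0.20 ± 0.08 and -0.02 ± 0.08 (limma adjusted p = 0.0588 and 0.856). SLC1A5, a glutamine transporter, had 2908 and 2958 normalised reads against 6493 and 6749 and fell (-1.17 ± 0.08 and -0.60 ± 0.08). ASNS, which makes asparagine, fell (-0.66 ± 0.13) and gave -0.08 ± 0.13 against the other scramble, and CHAC1 fell (-0.62 ± 0.15) and rose by 0.41 ± 0.15. Of 25 serine and one-carbon enzymes, 22 fell and 1 rose (median -0.86), and 7 fell and 2 rose against the other scramble (median -0.09). PHGDH, which opens serine synthesis, had 768 and 672 against 1864 and 1836 with 1015 and 776 in the other scramble, and fell (-1.36 ± 0.13), with -0.30 ± 0.13 against the other (limma adjusted p = 0.0807). TYMS, which makes thymidylate, and SHMT1 fell (-1.76 ± 0.11 and -0.42 ± 0.11 for TYMS, -1.39 ± 0.12 and -0.90 ± 0.12 for SHMT1).

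Of 16 genes of fatty acid synthesis, 10 fell and 1 rose (median -0.63), and 9 fell against both scramble groups. SCD, the stearoyl-CoA desaturase, had 1161 and 1214 normalised reads with shRNA2, against 3796 and 3915 with its scramble and 2657 and 2967 with the other (-1.70 ± 0.10 and -1.24 ± 0.10). FADS1 had 222 and 223 against 965 and 902 (-2.06 ± 0.12 and -1.86 ± 0.12) and FADS2 313 and 335 against 755 and 838 (-1.29 ± 0.11 and -0.79 ± 0.11). These desaturase values did not overlap any scramble library. In cholesterol synthesis 10 of 24 fell and 3 rose, with 10 and 4 against the other scramble. SQLE fell (-0.96 ± 0.10 and -0.50 ± 0.10), while MSMO1 rose by 0.56 ± 0.11 and 0.56 ± 0.11. Of 12 genes of LXR and cholesterol export, 4 fell (33.3%) and 3 rose (25%), beside 25 and 18% over all genes. Against the other scramble 7 fell and 2 rose. ABCA1, a cholesterol exporter (-1.13 ± 0.16 and -1.80 ± 0.16), and SREBF1 (-0.88 ± 0.12 and -1.41 ± 0.12) fell, while ABCG1 gave -0.20 ± 0.15 (limma adjusted p = 0.281) and fell (-1.14 ± 0.15) against the other scramble. NR1H3 (LXR-alpha) rose by 0.80 ± 0.24 and 0.85 ± 0.24. The count of falling cholesterol synthesis genes of 10 was 6 without shRNA2 replicate 2. The call of NR1H3 was lost without scramble replicate 1 (0.84, limma adjusted p = 0.0642), scramble replicate 2 (0.76, limma adjusted p = 0.0948), shRNA2 replicate 1 (0.73, limma adjusted p = 0.102) or shRNA2 replicate 2 (0.88, limma adjusted p = 0.0504).

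Of 33 genes of glycolysis and hypoxia, 19 fell and 2 rose (median -0.45), 18 fell and 2 rose against the other scramble (median -0.34), and 13 fell against both. LDHA, which makes lactate, had 7988 and 8166 normalised reads with shRNA2, against 18768 and 20144 with its scramble (-1.27 ± 0.15 and -0.66 ± 0.15 against the other). HK2, which phosphorylates glucose, had 1141 and 1173 against 2801 and 3167 (-1.36 ± 0.11 and -0.82 ± 0.11), and GPI 3173 and 3484 against 7732 and 9391 (-1.36 ± 0.17 and -1.60 ± 0.17). The values of these 3 genes did not overlap those of either scramble group. VEGFA, a hypoxia target that ATF4 also drives, rose by 0.35 ± 0.10 and 0.27 ± 0.10. In the oxidative stress list, 11 of 24 fell and 3 rose, and 5 fell and 3 rose against the other scramble. HMOX1 (heme oxygenase 1) had 2364 and 1790.5 against 703 and 868 and rose by 1.40 ± 0.15 and 0.55 ± 0.15, while TXN (thioredoxin) fell (-0.92 ± 0.09) and gave -0.24 ± 0.09 and SLC7A11, the cystine transporter, fell (-1.03 ± 0.26) and gave -0.21 ± 0.26. Of 20 heat shock genes 8 fell and 1 rose, while against the other scramble 3 fell and 8 rose. HSPB1 fell (-1.11 ± 0.12 and -1.32 ± 0.12), and the mitochondrial chaperonin HSPD1 fell (-0.87 ± 0.10) and rose by 0.29 ± 0.10. The count of falling oxidative stress genes of 11 was 7 without scramble replicate 1, 7 without scramble replicate 2, 7 without shRNA2 replicate 1 and 7 without shRNA2 replicate 2. The call of VEGFA was lost without scramble replicate 2 (0.32, limma adjusted p = 0.0608), shRNA2 replicate 1 (0.36, limma adjusted p = 0.0529) or shRNA2 replicate 2 (0.34, limma adjusted p = 0.0683). SLC7A11 lost its call without scramble replicate 1 (-0.91, limma adjusted p = 0.0643).

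Counts of genes of ribosome production depended on which scramble served as control. Of 43 MYC targets in ribosome biogenesis, 39 fell (median -0.63), but against the other scramble 5 fell and 6 rose (median -0.08). NCL (nucleolin) had 12568 and 12048 normalised reads with shRNA2, against 21380.5 and 23653 with its scramble and 12839.6 and 13337 with the other (-0.87 ± 0.09 and -0.09 ± 0.09, limma adjusted p = 0.492). LYAR, a nucleolar protein, fell against both (-1.30 ± 0.12 and -0.52 ± 0.12). Of 85 cytosolic ribosomal protein genes, 16 fell (18.8%) and 2 rose (2.35%), beside 25 and 18% over all genes. Their median was -0.04. Against the other scramble 52 rose and 3 fell (median 0.32). RPL3 had 33796 and 34599.9 against 56814 and 61974 (-0.80 ± 0.09 and -0.41 ± 0.09), and RPS20 rose by 0.28 ± 0.09 and 0.53 ± 0.09. Ribosomal protein genes have many processed pseudogenes, which may share reads with them. Of 41 translation factors 17 fell and 3 rose, with 18 rising against the other scramble. EIF5A fell (-0.77 ± 0.09) and gave -0.13 ± 0.09, while EIF3F rose by 0.29 ± 0.08 and 0.69 ± 0.08. Among 37 splicing factors 26 fell and 3 rose (median -0.40), with 4 and 9 against the other scramble. SRSF9 fell (-1.41 ± 0.09 and -1.35 ± 0.09). The count of falling cytosolic ribosomal protein genes of 16 was 9 without scramble replicate 2, 8 without shRNA2 replicate 1 and 9 without shRNA2 replicate 2. The call of RPS20 was lost without scramble replicate 1 (0.25, limma adjusted p = 0.0941), shRNA2 replicate 1 (0.27, limma adjusted p = 0.121) or shRNA2 replicate 2 (0.29, limma adjusted p = 0.0955). EIF3F lost its call without scramble replicate 1 (0.25, limma adjusted p = 0.0537), shRNA2 replicate 1 (0.29, limma adjusted p = 0.0734) or shRNA2 replicate 2 (0.30, limma adjusted p = 0.0646).

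Of 76 nuclear-encoded genes of the respiratory chain, 13 rose (17.1%) and 7 fell (9.21%), beside 18 and 25% over all genes. Their median was 0.09. Against the other scramble 54 rose and 1 fell (median 0.39). NDUFA10, a complex I subunit, had 2481 and 2392 normalised reads with shRNA2, against 1455 and 1635 with its scramble (0.66 ± 0.09 and 0.88 ± 0.09 against the other). UQCRB (0.59 ± 0.08 and 0.83 ± 0.08) and SDHC (0.53 ± 0.08 and 0.57 ± 0.08) rose as well, while NDUFS8 fell (-0.65 ± 0.11 and -0.36 ± 0.11). Of the 13 protein-coding genes of the mitochondrial genome 3 rose (MT-CO2, MT-ND6 and MT-ATP8), and 8 against the other scramble. Of 78 mitochondrial ribosomal protein genes 16 fell (20.5%) and 6 rose (7.69%), beside 25 and 18% over all genes. Against the other scramble 35 rose and 1 fell. MRPL10 had 2361 and 2343 against 1139 and 1169 and rose by 1.03 ± 0.09 and 0.62 ± 0.09. Of 37 proteasome subunits, 18 fell and 3 rose (median -0.22), but 4 fell and 18 rose against the other scramble (median 0.30). PSMD8 fell (-0.75 ± 0.09 and -0.36 ± 0.09) and PSMD10 rose by 0.49 ± 0.11 and 0.78 ± 0.11. The count of rising respiratory chain genes of 13 was 8 without scramble replicate 1, 7 without shRNA2 replicate 1 and 7 without shRNA2 replicate 2, and the falling count of 7 was 3 without scramble replicate 2 and 3 without shRNA2 replicate 2. The count of falling mitochondrial ribosomal protein genes of 16 was 7 without scramble replicate 2, 9 without shRNA2 replicate 1 and 4 without shRNA2 replicate 2, and the rising count of 6 was 3 without scramble replicate 1, 3 without shRNA2 replicate 1 and 3 without shRNA2 replicate 2. The count of falling proteasome genes of 18 was 11 without scramble replicate 2 and 11 without shRNA2 replicate 2. The call of MT-CO2 was lost without scramble replicate 1 (0.30, limma adjusted p = 0.168), scramble replicate 2 (0.38, limma adjusted p = 0.0907), shRNA2 replicate 1 (0.32, limma adjusted p = 0.204) or shRNA2 replicate 2 (0.35, limma adjusted p = 0.161). MT-ND6 lost its call without shRNA2 replicate 1 (0.34, limma adjusted p = 0.0715). The call of MT-ATP8 was lost without scramble replicate 1 (0.30, limma adjusted p = 0.0556), scramble replicate 2 (0.21, limma adjusted p = 0.168), shRNA2 replicate 1 (0.21, limma adjusted p = 0.262) or shRNA2 replicate 2 (0.30, limma adjusted p = 0.096).

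**Figure D3:**
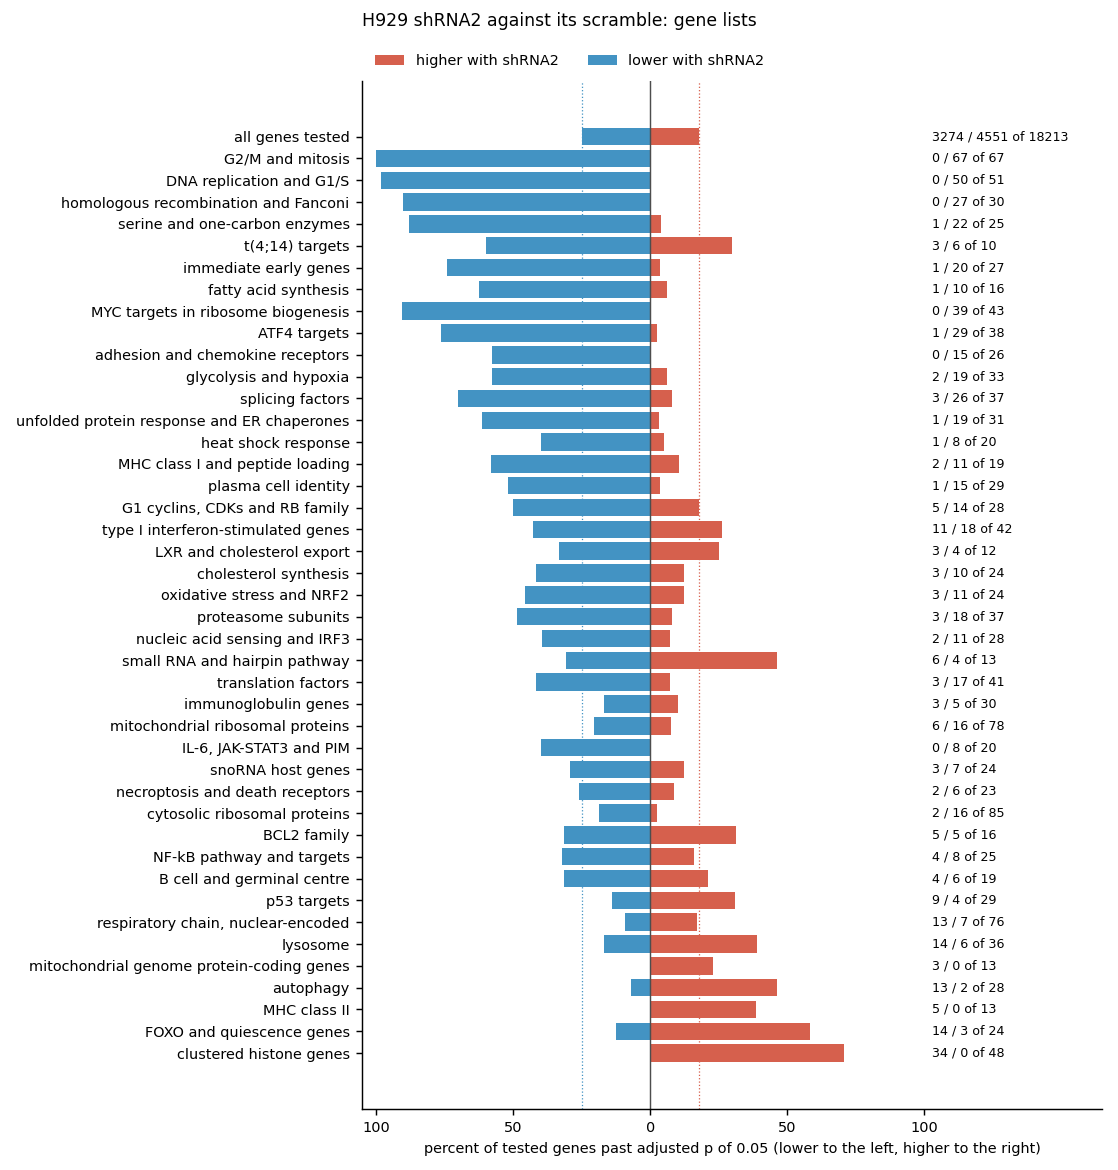
Percent of the tested genes of each list that passed a limma adjusted p of 0.05 with shRNA2 against its own scramble, higher to the right and lower to the left, with the counts at the right edge and dotted lines at the shares over all genes tested (18% and 25%). All 67 G2/M genes lie to the left and 34 of 48 histone genes to the right.

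Lysosome, autophagy and FOXO genes rose more often than they fell against the scramble made for shRNA2. Of 28 autophagy genes 13 rose and 2 fell (median 0.23), with 8 and 6 against the other scramble. NBR1, a receptor for cargo of autophagy, had 4284 and 4269 normalised reads with shRNA2, against 2197 and 2203 with its scramble and 3084 and 3173 with the other (0.96 ± 0.08 and 0.45 ± 0.08). ATG14, a subunit of the lipid kinase complex of autophagy, had 428 and 449.6 against 229 and 252 (0.87 ± 0.13 and 0.68 ± 0.13). ULK1, which starts autophagy, and the cargo receptor SQSTM1 (p62) rose by 1.17 ± 0.11 and 0.74 ± 0.09 against their own scramble and gave 0.28 ± 0.11 and 0.01 ± 0.09 against the other, where neither passed. Of 36 lysosome genes 14 rose and 6 fell, with 12 each way against the other scramble. NEU1, a sialidase (0.66 ± 0.10 and 0.67 ± 0.10), ATP6V1A, of the proton pump (0.62 ± 0.09 and 0.78 ± 0.09), and LAMP1 (0.34 ± 0.09 and 0.46 ± 0.09) rose, while ARSB fell (-1.21 ± 0.10 and -0.72 ± 0.10). Of 24 FOXO and quiescence genes, 14 rose and 3 fell (median 0.58), but 2 rose and 11 fell against the other scramble (median -0.18). FOXO4 had 609.7 and 574 against 183 and 207 and rose by 1.60 ± 0.11 and 0.31 ± 0.11, and YPEL3 rose by 1.68 ± 0.14 but fell (-0.37 ± 0.14). KLF2, a factor of quiescent lymphocytes, had 256 and 286 against 818 and 774 and fell (-1.55 ± 0.10 and -2.77 ± 0.10). Among the genes that process hairpin RNAs, 6 of 13 rose and 4 fell, and 6 rose and 2 fell against the other scramble. The falling count against its own scramble moved by over 1.5 times without any 1 of the 4 libraries compared. AGO2, which carries the guide strand, rose by 0.53 ± 0.10 and 0.43 ± 0.10, and DICER1 fell (-0.37 ± 0.09) and gave -0.09 ± 0.09. Of 24 snoRNA host genes 7 fell (29.2%) and 3 rose (12.5%), beside 25 and 18% over all genes. Against the other scramble 5 were called each way. SNHG15 fell (-0.67 ± 0.11 and -0.41 ± 0.11). The count of rising FOXO genes of 14 was 9 without scramble replicate 2, and the lysosome count of 14 was 9 without shRNA2 replicate 1. The call of LAMP1 was lost without scramble replicate 1 (0.31, limma adjusted p = 0.0559) or shRNA2 replicate 1 (0.28, limma adjusted p = 0.115). DICER1 lost its call without scramble replicate 1 (-0.27, limma adjusted p = 0.0648) or shRNA2 replicate 1 (-0.32, limma adjusted p = 0.0722).

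**Figure D4:**
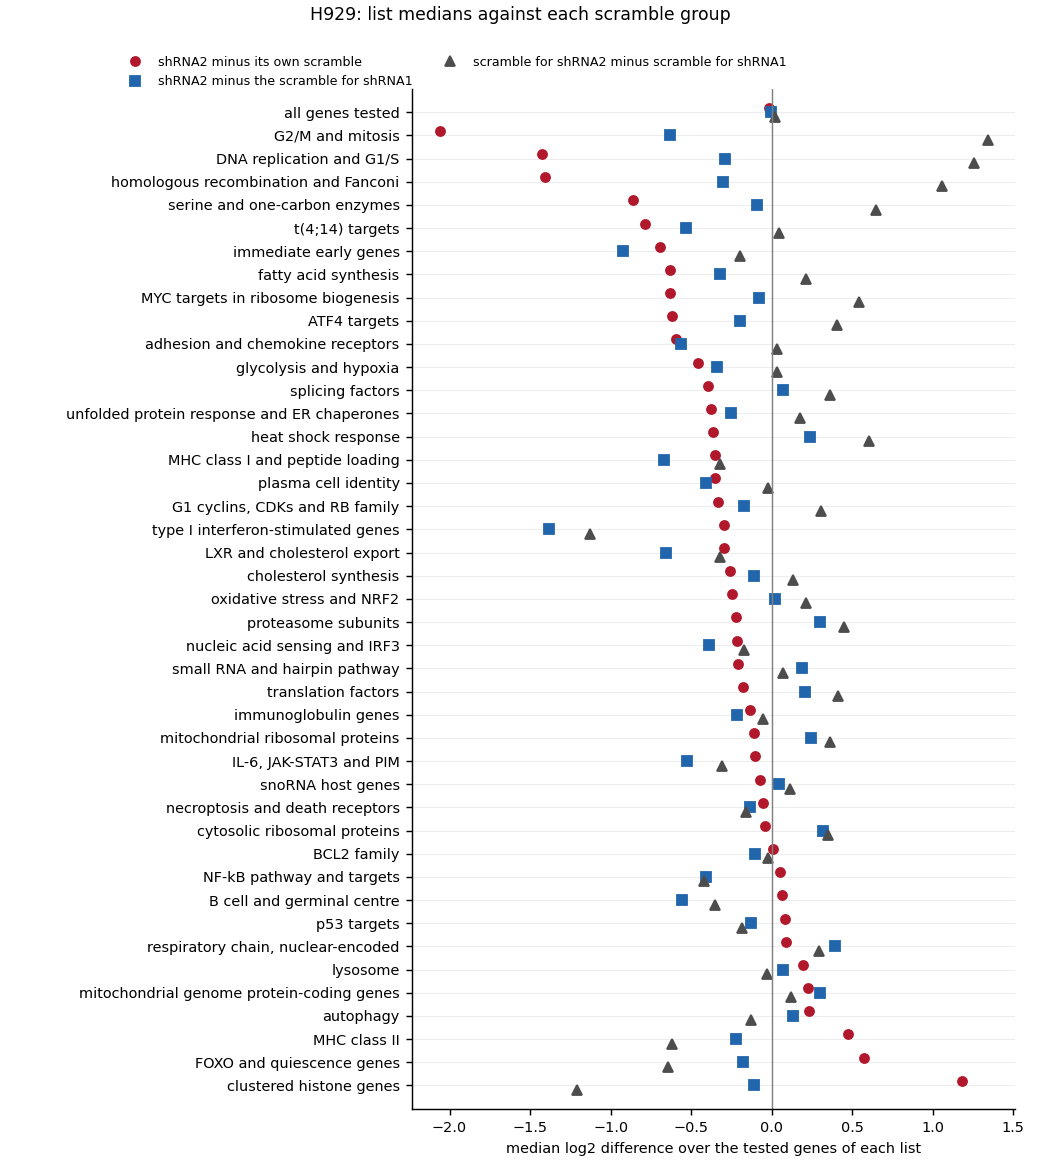
Median log2 difference over the tested genes of each list, for shRNA2 minus its own scramble (circles), shRNA2 minus the scramble for shRNA1 (squares) and the 2 scramble groups against each other (triangles). The circles and squares lie close together for adhesion, plasma cell and immediate early genes, and far apart for cell cycle, histone and interferon-stimulated genes, where the triangles are far from 0.

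In H929 the 2 hairpins shared some changes and differed in others. Against its own scramble, shRNA1 left 4685 genes (25.7%) higher and 5044 (27.7%) lower, 53.4% in all. Of the 18213 genes tested, 1270 were higher and 2104 lower with both hairpins, each against its own scramble, and 1453 were called in opposite directions. The overlap that the share called with each hairpin would give by itself was not worked out. The difference between the hairpin effects, tested in the same fit as shRNA2 minus shRNA1, was positive at 3634 genes (20%) and negative at 3984 (21.9%). All 67 G2/M genes were called lower with shRNA2, and their median was -2.06 with shRNA2 and -3.0 with shRNA1. ZBP1 fell with shRNA2 (-1.62 ± 0.09) and with shRNA1 (-1.31 ± 0.09), a difference of -0.31 ± 0.13 that did not pass (limma adjusted p = 0.0699). Of the plasma cell genes, IRF4 and PRDM1 fell with shRNA2 and rose with shRNA1 (0.30 ± 0.10 and 0.61 ± 0.09). The differences of -0.93 ± 0.14 and -1.18 ± 0.13 passed (limma adjusted p = 7.5e-05 and 3.7e-06). Over the 29 plasma cell identity genes, however, 8 rose and 13 fell with shRNA1, beside 1 and 15 with shRNA2. Of the 9 plasma cell markers, 3 rose and 6 fell with shRNA1.

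Immediate early genes differed by hairpin, with the difference negative and past the threshold in 22 of 27 (median -1.08). With shRNA2 20 fell and 1 rose, and with shRNA1 5 fell and 16 rose. FOS had 55.5 and 26.7 normalised reads with shRNA2 and 2754 and 1371 with shRNA1, a difference in effect of -5.23 ± 0.65. PIM1 fell with shRNA2 and rose with shRNA1 (-3.77 ± 0.25), and so did SREBF1 (-2.64 ± 0.17). Cytosolic ribosomal protein genes were near level with shRNA2 (median -0.04), whereas 82 of 85 fell with shRNA1 (median -1.14). RPS16 and EIF3L differed by 3.52 ± 0.13 and 3.46 ± 0.12. Class II genes rose in 5 of 13 cases with shRNA2 and in 12 with shRNA1 (medians 0.47 and 2.0). The interferon-stimulated genes had a median of -0.30 with shRNA2 and -1.24 with shRNA1. IFI44L had 394 and 429 normalised reads with shRNA2 and 24.8 and 21.2 with shRNA1, and its effects differed by 5.83 ± 0.30. With shRNA2 alone it gave 0.70 ± 0.22. Since each hairpin was set against its own scramble and these scrambles differ, what stems from the hairpins and what from the controls cannot be told apart. The call of IFI44L was lost without scramble replicate 2 (0.24, limma adjusted p = 0.318), shRNA2 replicate 1 (0.76, limma adjusted p = 0.0516) or shRNA2 replicate 2 (0.64, limma adjusted p = 0.1).

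The same hairpin in MM1.S gave 3537 genes higher (17.4%) and 4416 lower (21.7%) among 20370 tested, and the difference of its effect between the lines, H929 minus MM1.S, was positive at 1102 (5.41%) and negative at 885 (4.34%), 9.75% in all. Same-numbered MM1.S libraries deviated together (correlations of 0.671 to 0.822). The MM1.S values and the line differences of lists and genes given below come from a fit without a block for this. With the replicate number as a separate block in each line, H929 included, the counts of the difference were 1922 and 1928. Without 1 library they were as low as 484 positive (without H929 shRNA2 replicate 1) and 324 negative (without H929 shRNA2 replicate 2). ZBP1 fell in H929 (-1.62 ± 0.09) and in MM1.S (-3.10 ± 0.12), a difference of 1.48 ± 0.17 (limma adjusted p = 3.1e-04). All 67 G2/M genes fell in both lines, and 50 of 51 replication genes in H929 and 51 in MM1.S, with medians of -2.06 in H929 and -2.81 in MM1.S for G2/M and -1.43 and -1.87 for replication. The difference was positive and past the threshold in 27 of the G2/M genes and 3 of the replication genes. Of the plasma cell identity genes 15 fell in H929 and 20 in MM1.S (medians -0.35 and -0.65), and of the immediate early genes 20 and 12 (medians -0.70 and -0.64).

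The lists with the most differences between lines for their size were class II, ATF4 target, oxidative stress, t(4;14) and interferon-stimulated genes. Of 13 class II genes, 10 differences were positive and past the threshold, with medians of 0.47 in H929 and -0.82 in MM1.S. Of 24 oxidative stress genes, 12 differences were negative (medians -0.25 in H929 and 0.48 in MM1.S), and of 10 t(4;14) genes 5 were positive and 1 negative. In H929 29 of 38 ATF4 targets fell and 1 rose, while in MM1.S 19 rose (median 0.65), and 21 differences were negative and past the threshold. STC2, a secreted glycoprotein, fell (-1.19 ± 0.10) in H929 and rose by 2.47 ± 0.63 in MM1.S, a difference of -3.65 ± 0.90 (limma adjusted p = 0.0237). In MM1.S it had 32 and 29 reads with shRNA2, against 1 and 18 with scramble. CHAC1 fell in H929 and rose in MM1.S (-0.62 ± 0.15 and 2.57 ± 0.63), with 1742 and 1802 reads in MM1.S with shRNA2, against 107 and 1005 with scramble. Of the interferon-stimulated genes, 11 rose and 18 fell in H929, and 20 rose and 2 fell in MM1.S, with 19 differences negative and past the threshold. MX1 fell (-0.74 ± 0.17) in H929 and rose by 1.57 ± 0.18 in MM1.S. The differences of STC2 and CHAC1 kept their sign and lost their call without 1 or more of the libraries, with limma adjusted p up to 0.0824 and 0.124. In cholesterol synthesis 10 genes fell in H929 and 17 in MM1.S. ABCG1 gave -0.20 ± 0.15 in H929 and rose by 3.17 ± 0.20 in MM1.S, a difference of -3.37 ± 0.28 (limma adjusted p = 3.3e-05). AHNAK fell less in H929 (-0.75 ± 0.17) than in MM1.S (-4.19 ± 0.19), a difference of 3.44 ± 0.27. S100A4 and IFITM1, which fell in H929, had too few reads in MM1.S for a comparison of lines: S100A4 was at 0 in its shRNA2 and scramble libraries, and IFITM1 had 3 and 5 reads with shRNA2, against 0 and 5 with scramble. The call of MX1 was lost without scramble replicate 1 (-0.47, limma adjusted p = 0.0795). AHNAK lost its call without shRNA2 replicate 2 (-0.50, limma adjusted p = 0.0597).

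**Figure D5:**
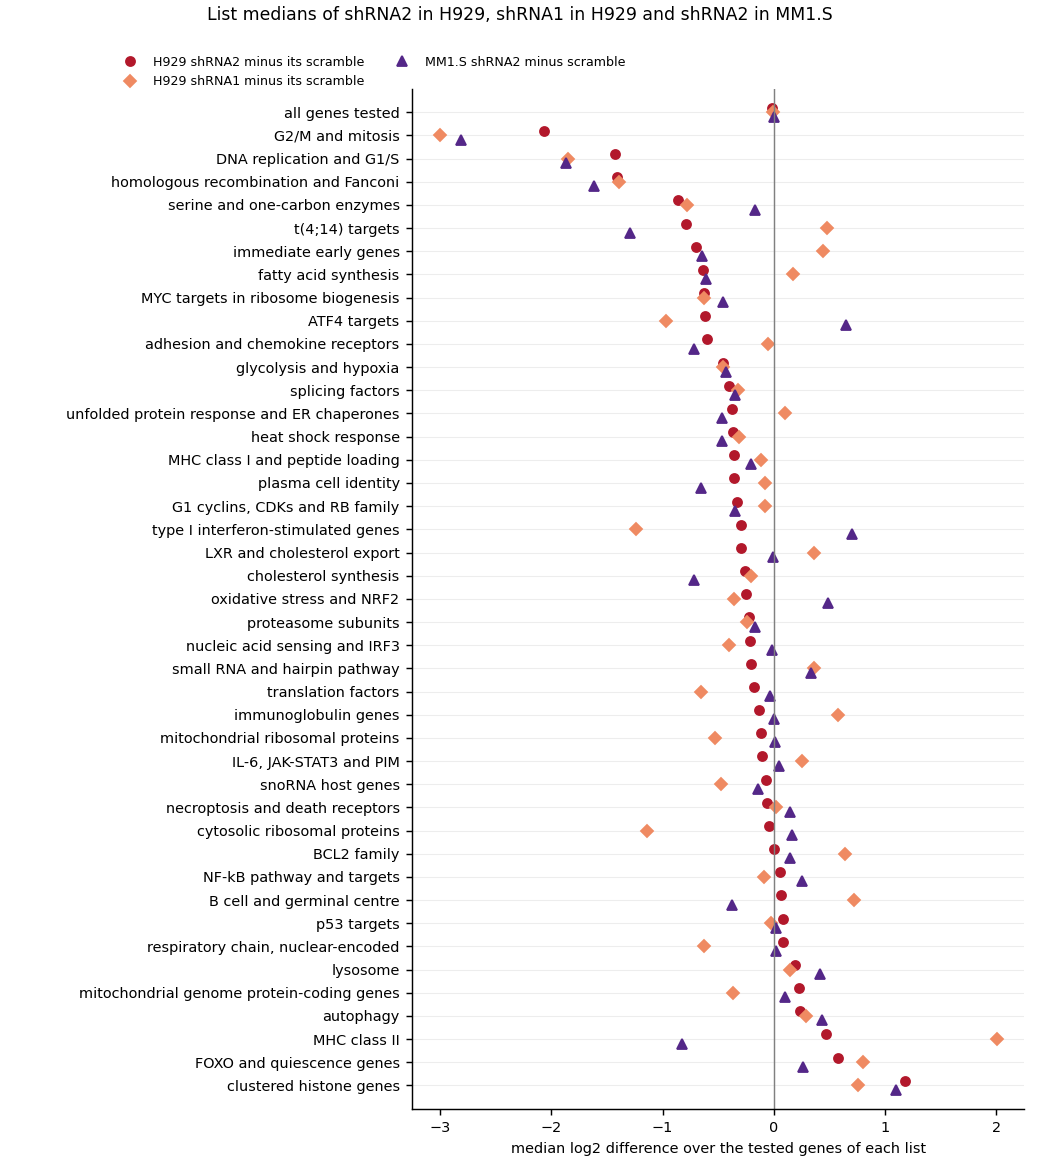
Median log2 fold change over the tested genes of each list, for shRNA2 in H929 (circles), shRNA1 in H929 (diamonds) and shRNA2 in MM1.S (triangles), each against its own scramble. All 3 medians are negative for cell cycle lists, while ATF4 targets and interferon-stimulated genes are positive in MM1.S only and class II genes are highest with shRNA1.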

How the data were processed

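The report rests on poly(A)-selected RNA-seq of 4 H929 libraries, 2 with shRNA2 and 2 with the scramble made for it. The other 4 H929 libraries entered the same fit, and 6 MM1.S libraries entered the comparison of lines. Per the submitters' processing notes, STAR 2.5.3a, DESeq2 1.24.0 and the GRCh38 (hg38) genome were used; the counting tool, its strand setting and the annotation release are not given in the sources used here. The labels call the libraries replicates and do not say whether they came from separate cultures.

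The H929 table deposited by the authors holds gene counts divided by a size factor (a signal, called normalised reads here): all 231754 of its values above 0 came out as whole reads within 0.01. The MM1.S table holds raw counts, as deposited. A further deposited table holds the authors' log2 fold changes and adjusted p-values for shRNA2 in H929, quoted only where the authors' deposited table is named. Of 58069 gene records, 18 repeated identifiers were left out, and 22315 of the 58051 remaining genes had no symbol. No column of per-sample values was left unused. Headers name the shRNA2 columns by a code other than the labels' wording; they were assigned by elimination among the H929 groups.

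Values were analysed as log2(value + 1), which understates changes of low genes, for the 18213 genes that reached 10 in 2 or more of the 8 libraries. limma (3.58.1, R 4.3.3), with a mean-variance trend, fitted the 4 H929 groups together, with Benjamini-Hochberg adjustment over all genes and a threshold of 0.05. A count test had been planned, but the deposited H929 values are not counts, so limma was the test and edgeR 4.0.16 and DESeq2 1.42.0 on recovered reads were alternatives. The difference between hairpins is the interaction in the same fit. The difference between lines came from a fit of 14 libraries and 20370 genes, with MM1.S counts divided by median-of-ratios size factors. The fits were tested on simulated data. Other alternatives were pseudocounts, filters, TMM scaling, other control libraries, single libraries left out and the replicate number as a block.

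The members, the 48 lists (6 of them of cell type markers) and the genes given by name were chosen with earlier results of these data known. The rule for named genes, with a mean of at least 100, took the 12 highest and 12 lowest folds whose groups did not overlap, 6 each way by difference in level, up to 4 each way per list and 6 each way per difference, 302 genes in all together with a list of genes of interest, of which the text gives a part; genes outside it that the text names were chosen after their values were seen. Some genes of these lists are not reported here. Of the 302, 182 overlap another gene in GENCODE release 29, 136 of them on the opposite strand, and reads of such pairs could not be told apart. Promoters are from RefSeq (GRCh38.p14). Same-numbered replicates were not taken as pairs in H929, where the correlation of their deviations between shRNA2 and its scramble was 0.049 (range -0.208 to 0.236 over H929 groups). In MM1.S it ran between 0.671 and 0.822.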

Additional observations from a re-analysis of the deposited data

Results flagged for a closer look

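The difference between the shRNA2 effect and the shRNA1 effect in H929, each against its own scramble, was tested in the same limma fit, and the 6 most positive and 6 most negative differences among genes passing it are given here as log2 values. They are chosen for their size. Of the interferon-stimulated genes, IFI44L differed by 5.83, IFI44 by 4.40, DDX60 by 4.23 and IFI27 by 3.50. RPS16, a ribosomal protein, differed by 3.52 and EIF3L, a subunit of an initiation factor, by 3.46. RPS16 gave 0.00 ± 0.09 with shRNA2 and -3.52 ± 0.09 with shRNA1, and EIF3L -0.10 ± 0.08 and -3.57 ± 0.08. The negative differences were -6.0 for COL1A1, a collagen chain, -5.92 for PHLDB2, -5.66 for AHNAK, -5.54 for KIF1A, a kinesin motor, -5.27 for CECR2 and -5.23 for the immediate early gene FOS. COL1A1 gave -1.19 ± 0.40 with shRNA2 and 4.82 ± 0.40 with shRNA1, and FOS -3.01 ± 0.46 and 2.21 ± 0.46. COL1A1 was low with shRNA2 (3.36 and 0.721 normalised reads) and with its scramble (5.15 and 5.32). The shRNA2 call of COL1A1 was lost without scramble replicate 1 (-1.21), scramble replicate 2 (-1.17) or shRNA2 replicate 2 (-0.51). Neither edgeR nor DESeq2 called that fall. The 2 hairpins were set against different scramble groups, which themselves differed, and the part of that in these differences was not tested.

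The difference between the shRNA2 effect in H929 and in MM1.S, another myeloma line, was tested across 14 libraries. The most positive differences were 3.95 for SPARC, 3.81 for WNT5A, a Wnt ligand, 3.77 for SCNN1G, an epithelial sodium channel subunit, 3.53 for FER1L4, 3.45 for TMPRSS15 and 3.44 for AHNAK. The most negative were -3.65 for STC2, -3.58 for IFITM1, -3.37 for ABCG1, a cholesterol exporter, -3.20 for DDX60, -3.18 for CHAC1 and -3.01 for S100A4. S100A4 had 0 reads in the MM1.S shRNA2 and scramble libraries and IFITM1 had 3 and 5 against 0 and 5, so the value of S100A4 restates its H929 change and neither gene allows a comparison of lines. STC2 was also low in MM1.S, with 32 and 29 reads with shRNA2, against 1 and 18 with scramble. In H929, SPARC had 10.9 and 5.76 normalised reads with shRNA2, against 3.09 and 7.45 with its scramble, and WNT5A 15.1 and 17.3 against 13.4 and 7.45. SCNN1G was near level in MM1.S, with 4943 and 6004 reads with shRNA2, against 4977 and 5332 with scramble. Its difference thus rests on H929, where its values are not reported here. SPARC gave 0.61 ± 0.52 in H929 and -3.34 ± 0.39 in MM1.S, and ABCG1 -0.20 ± 0.15 and 3.17 ± 0.20. The lines came from separately prepared tables, so line and preparation cannot be told apart.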

How the results depend on the processing

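With all 4 H929 scramble libraries as the control, 1628 genes were higher and 2570 lower, against 3274 and 4551 with the scramble made for shRNA2. With the scramble for shRNA1 as the control, an alternative chosen after seeing the data, the counts were 3197 and 3989, and these log2 values had the opposite sign: HSPD1 0.29, CHAC1 0.41, PCNA 0.32, EIF3L 0.47, RPS16 0.33, CDKN1A -1.06, NFKB2 -0.34, IFIH1 -0.27, NEAT1 -0.13, IFI44L -1.03, TBKBP1 -0.39, BBC3 -0.48, FGFR3 -0.27, TRIM22 -0.75, IGHA1 -0.80, UBA7 -0.092, YPEL3 -0.37, IGHA2 -0.71 and FER1L4 -0.78. With all 4 scramble libraries, IFI44L (-0.16) and FER1L4 (-0.072) also changed sign. Of 205 genes checked singly, 52 kept their sign but lost their call with all 4 scramble libraries, and 24 with the scramble for shRNA1. Among the 52 were MCM10, UHRF1 and EXO1. Without single libraries, 1861 to 2510 genes were higher and 3318 to 3813 lower. Counts stayed within 1.5 times under both pseudocounts, both filters, TMM scaling, edgeR (3742 and 4274), DESeq2 (2464 and 3924), the 4 libraries alone (3756 and 4970) and the replicate block (3270 and 4554). In H929 same-numbered libraries were not taken as pairs, and among the genes named in the text the block changed the call of KIF1A alone, which then passed (-1.07). Of 96 counts over lists (48 lists, each way), those that moved by over 1.5 times numbered 48 with all 4 scramble libraries, 57 with the scramble for shRNA1, 15 with no filter, 7 with edgeR, 7 with DESeq2, 9 with the 4 libraries alone and 19 to 27 without single libraries; the other settings moved 3 or fewer.

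The difference between lines was called for 1102 genes positive and 885 negative. The replicate block gave 1922 and 1928, edgeR gave 561 negative, and leaving out single libraries gave 484 to 1057 positive and 324 to 1093 negative. With edgeR, the differences of IFITM1 (-3.13), CHAC1 (-2.36) and S100A4 (-2.93) lost their calls. Recovered reads gave a chi-square per degree of freedom between replicates of 2.36 for shRNA2 and 5.48 for its scramble in H929, so the scramble libraries differed more. The MM1.S replicates differed more still, at 14.9 for shRNA2 and 30.3 for scramble. The cause of these changes was not tested.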

Other observations

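The direction of change differed between gene types. Of 1012 long intergenic noncoding RNAs, 24.9% were higher with shRNA2 than with its scramble and 6.82% lower, with a median log2 difference of 0.33, and of 1220 antisense genes 18.3% were higher and 5.98% lower (median 0.26). Of 766 processed pseudogenes, 4.57% were higher and 22.8% lower (median -0.45). Against the scramble for shRNA1 the medians were 0.14 for intergenic noncoding RNAs, 0.13 for antisense genes and -0.04 for pseudogenes. Between the scramble for shRNA2 and the scramble for shRNA1 they were -0.22, -0.16 and 0.40. Reads of antisense genes and pseudogenes can come from an overlapping or near-identical gene, and this was not tested.

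Among the 37 mitochondrial genes passing the filter, 10 were higher (median 0.26). The nuclear chromosomes had medians between -0.12 (chromosome 13) and 0.03 (chromosome 17). With genes split by level into 5 equal bins, the share lower with shRNA2 was 8.92% in the lowest bin and 39.4% in the highest. The share higher was 10.8% in the lowest bin, 22.6% in the middle and 16.3% in the highest. Both shares were smallest in the lowest bin.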
